A study of Mus musculus with 25 samples.

Results

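The insulin-like growth factor (IGF) axis was described at 10 genes of the mouse genome, namely Igf1, Igf2, H19, Igf1r, Igf2r, Igfbp2, Igfbp3, Igfbp4, Igfbp5 and Igf2bp2. They were chosen by name, out of 26182 genes with a curated RefSeq transcript on the 21 chromosomes, and located on mm10. Of these genes, 9 encode proteins and H19 encodes a long non-coding RNA. The study asked what the chromatin protein Spin1 does in skeletal muscle and where it sits on chromatin. Of its 25 samples, 22 were RNA-seq samples, which were not analysed here. The data used here were 2 peak lists from chromatin immunoprecipitation and sequencing (ChIP-seq), 1 library for Spin1 with a custom antibody and 1 for trimethylation of histone H3 at lysine 4 (H3K4me3), with 1 input library as the background. Both came from primary myoblasts of C57BL/6 mice (C57BL/6N in the study's methods), isolated from limb muscle at an age of 10 days, and no deletion of Spin1 and no treatment is named for them. Fibroblasts were allowed to attach in a preplating step, and the myoblasts were then grown in culture. The labels name the H3K4me3 sample as such but give its antibody as raised against H3K4me. There were no replicates, so no value below has an error between samples and no difference was tested, and the read depth of the libraries is unknown.

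IGF1 and IGF2 are secreted hormones that bind the receptor tyrosine kinase encoded by Igf1r, which signals through insulin receptor substrates, PI3 kinase and AKT. In skeletal muscle they are known for promoting growth of fibers and both proliferation and differentiation of myoblasts. The IGF2 receptor takes up IGF2 for degradation, and the secreted IGF binding proteins hold the ligands and change their access to the receptor. Igf2, H19 and Igf2r are imprinted, that is, expressed mainly from the allele of one parent. H3K4me3 marks promoters, and Spin1 is a reader protein that binds it. The peak lists do not separate the parental alleles.

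Peaks were called by the authors with MACS against the input. Each peak carries a score, which is -log10 of the p-value for enrichment multiplied by 10, and so many strong peaks share a score of 3100 that they cannot be ordered among themselves. The lists hold 17106 Spin1 and 30763 H3K4me3 peaks, of which 5071 and 13813 have exactly this score. The score of 3100 stands for a p-value too small to compute, and 207 Spin1 and 80 H3K4me3 peaks have a higher score. A score above 3100 therefore does not place a peak above those at 3100. Otherwise a score orders peaks within 1 list. It is not a level of binding and cannot be compared between antibodies. A promoter means the 1 kb on each side of a transcription start site (TSS) of any curated transcript of the gene.

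All 10 genes held a Spin1 peak at the promoter, against 50.7% of all genes, and all 10 held an H3K4me3 peak, against 61.9%. Both peaks were found at 50.6% of all genes and at 56.7% of protein-coding genes. At each of the 10 promoters the Spin1 peak lay inside a single H3K4me3 peak, which was so at 92.5% of the 13246 genes with both peaks. H3K4me3 reached a score of 3100 at all 10 genes, as at 98.2% of genes with both peaks, so the H3K4me3 score does not separate the 10 genes. Spin1 reached 3100 at 3 of them, Igf2, Igf1r and Igf2bp2, against 49.1% of genes with both peaks. The median Spin1 score was 1539 over the 10 genes and 3010.1 over the 13246 genes, whereas the median Spin1 peak width was 2412 bp and 2308 bp, and the median H3K4me3 width 4720.5 bp and 3558 bp. By width, the Spin1 peaks of the 10 genes ranged from above 4.8% of genes, at Igfbp2, to above 98.3%, at Igf2. At Igf1, Igfbp2, Igfbp4 and Igfbp5 the Spin1 peak scored under 500, which was so at 12.1% of genes with both peaks. The center of the Spin1 peak lay downstream of the main start site at 9 of 10 genes, Igf2 being the exception, and at 76.5% of genes with both peaks.

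**Figure D1:**
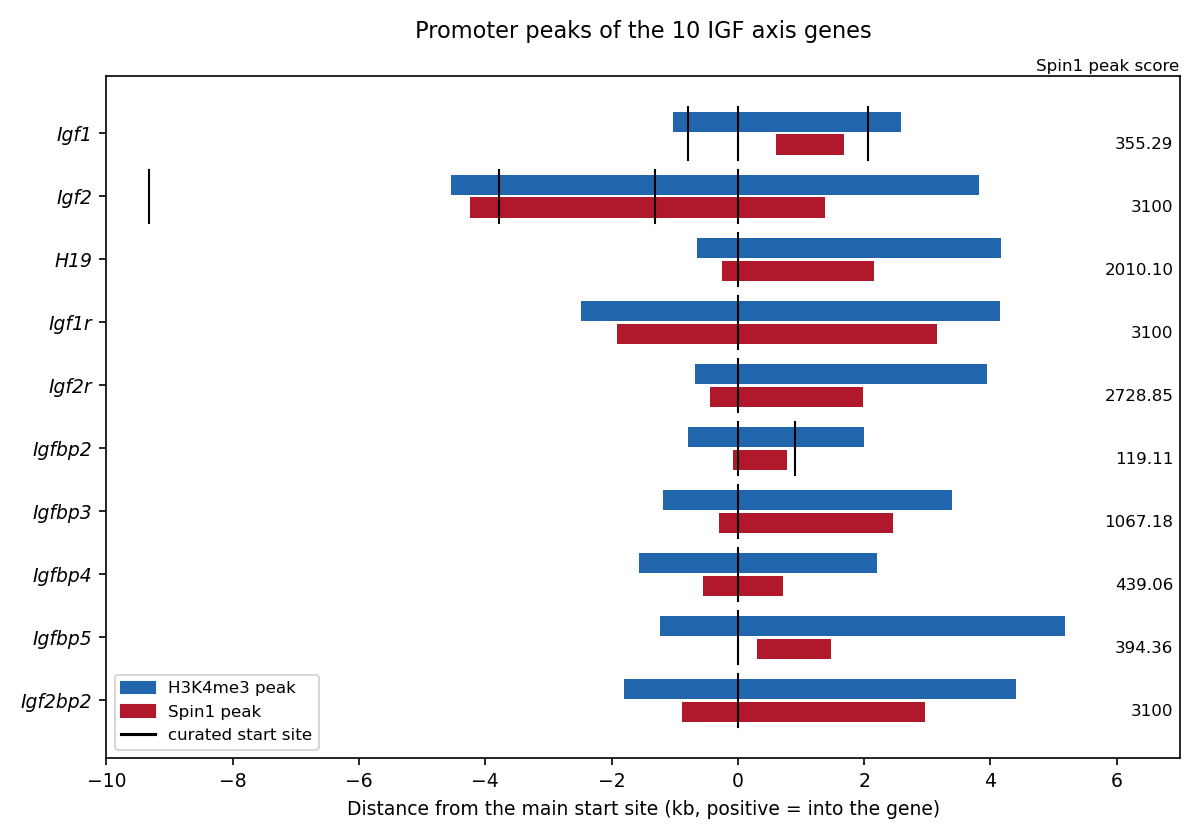
Extent of the Spin1 (red) and H3K4me3 (blue) promoter peak of each gene, drawn by distance in kb from the main start site (the RefSeq Select transcript, or the curated start site for H19), with black lines at every curated start site and the Spin1 peak score at the right. Every red bar lies within its blue bar, and the red bars are shortest at Igfbp2, Igf1, Igfbp5 and Igfbp4.

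The 10 genes have 16 curated start sites, and 14 of them had a Spin1 peak within 1 kb, against 50.4% of all 31647 curated start sites. H3K4me3 was found at 15. The start sites differ in their content of CpG dinucleotides, the bases at which DNA can be methylated and which are dense at CpG island promoters. The 120 bases before 6 start sites are shown, read 5′ to 3′ on the strand of the gene from the RefSeq genome GRCm38 (mm10), with CpG in capitals, because they span the range from a promoter wholly covered by Spin1 to one without a peak.
Igf1r (chr7:67952137-67952256, plus strand): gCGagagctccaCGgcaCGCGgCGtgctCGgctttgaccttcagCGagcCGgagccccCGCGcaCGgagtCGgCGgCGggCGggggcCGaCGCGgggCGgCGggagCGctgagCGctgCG
Igf2bp2 (chr16:22163300-22163419, minus strand): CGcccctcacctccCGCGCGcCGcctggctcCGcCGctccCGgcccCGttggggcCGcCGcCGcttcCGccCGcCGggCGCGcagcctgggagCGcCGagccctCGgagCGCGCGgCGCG
Igfbp5 (chr1:72874866-72874985, minus strand): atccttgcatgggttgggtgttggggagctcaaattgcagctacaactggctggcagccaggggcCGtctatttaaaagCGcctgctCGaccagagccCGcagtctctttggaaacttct
Igf1, start site at 87861111 (chr10:87860991-87861110, plus strand): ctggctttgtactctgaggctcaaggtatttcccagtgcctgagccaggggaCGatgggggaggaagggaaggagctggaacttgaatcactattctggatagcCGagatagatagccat
Igf2, main start site (chr7:142657497-142657616, minus strand): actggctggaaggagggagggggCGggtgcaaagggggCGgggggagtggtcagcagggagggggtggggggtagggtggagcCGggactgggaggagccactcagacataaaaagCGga
Igf2, most upstream start site (chr7:142666817-142666936, minus strand): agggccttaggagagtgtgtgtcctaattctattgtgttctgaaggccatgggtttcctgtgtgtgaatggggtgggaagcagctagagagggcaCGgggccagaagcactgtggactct
These stretches hold 23 CpG at Igf1r, 25 at Igf2bp2, 4 at Igfbp5, 2 at Igf1, 4 at the main start site of Igf2 and 1 at its most upstream start site.

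Of the ligand genes, Igf1 had a narrow Spin1 peak of 1075 bp at chr10:87859659-87860733 with a score of 355. It lay in an intron, from 607 to 1681 bp downstream of the main start site at 87859052, and the next start site follows at 87861111. Within the 1 kb on each side, Spin1 covered 19.7% at the main start site and 31.1% at the third, and none at the first, at 87858265. H3K4me3 covered all 3 start sites with 1 peak of 3611 bp at chr10:87858020-87861630. Spin1 at Igf1 was therefore placed between start sites, and its score was above that of 9.16% of genes with both peaks although its H3K4me3 peak was wider than that of 51.6%.

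Igf2 was the opposite case. A single Spin1 peak of 5634 bp with a score of 3100, at chr7:142656109-142661742, covered the windows of 2 start sites (142657496 and 142658804) completely and 73.6% of another (142661271). It was wider than the Spin1 peak of 98.3% of genes with both peaks, and it lay in an H3K4me3 peak of 8352 bp (chr7:142653682-142662033), wider than that of 97% of them. The fourth and most upstream start site, at 142666816, had neither peak. Igf2os, an antisense transcript, starts within the same peaks, and a peak does not show to which of these overlapping genes it belongs. A second Spin1 peak of 729 bp with a score of 158 (chr7:142654672-142655400) lay in an Igf2 intron at the microRNA gene Mir483, inside the same H3K4me3 peak. An H3K4me3 peak of 1155 bp with a score of 790 lay in the upstream intron (chr7:142663580-142664734) without Spin1.

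H19, whose RNA is the precursor of the microRNA Mir675, had a Spin1 peak of 2406 bp and a score of 2010.1 at chr7:142575986-142578391. The peak reached from 245 bp upstream to 2160 bp downstream of the start site at 142578146 and so covered most of the gene, which is 2617 bp long. Mir675 lies inside it. A small Spin1 peak of 679 bp and a score of 104 followed at the 3′ end of H19 (chr7:142575163-142575841), and both lay in 1 H3K4me3 peak of 4813 bp (chr7:142573980-142578792).

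Viewed as 1 locus with 50 kb on each side (chr7:142525530-142716816), Igf2-H19 held 7 Spin1 and 9 H3K4me3 peaks. Beyond the promoters of Igf2 and H19, Spin1 lay at the promoters of Mrpl23 and Mir483. For Mir483, inside an Igf2 intron, the annotated start of the microRNA transcript was taken as the start site. Spin1 also lay at 3 places outside every promoter, namely the 3′ end of H19, an intron of Nctc1 and an intergenic place. The intron peak (chr7:142550272-142551002, 731 bp, score 157) was centered 27.5 kb downstream of the H19 start site. Nctc1 is a non-coding RNA gene in the stretch that is known to hold muscle enhancers of Igf2 and H19. No H3K4me3 peak overlapped this Spin1 peak, and the nearest lay 349 bp away with a score of 51.4. The intergenic peak (chr7:142599744-142600555, 812 bp, score 131) was centered 22.0 kb upstream of H19 and overlapped an H3K4me3 peak of 555 bp with a score of 98.3.

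**Figure D2:**
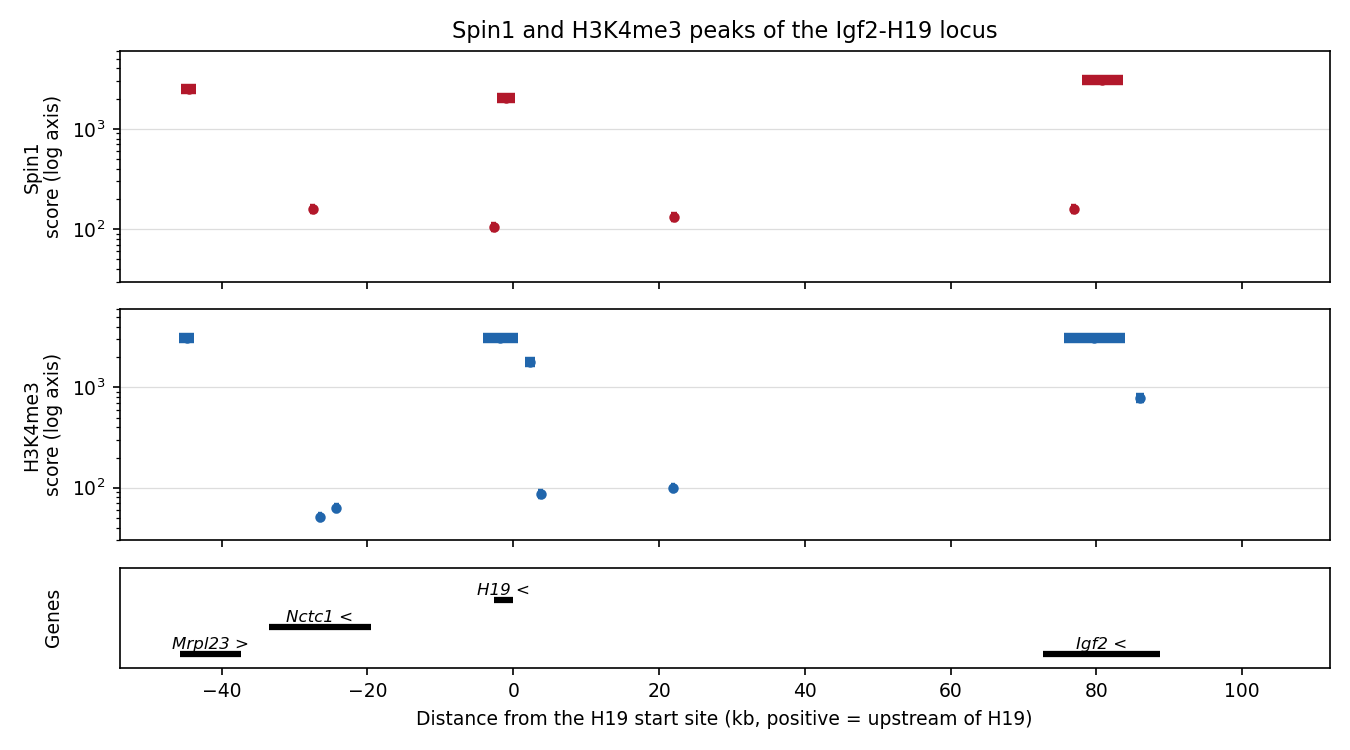
Spin1 peaks (upper panel) and H3K4me3 peaks (middle panel) of the Igf2-H19 locus by distance in kb from the H19 start site and score on a log axis, where a bar gives the width of a peak and a dot its center, with genes and their direction below. Spin1 and H3K4me3 are both high at Mrpl23, H19 and Igf2, and the H3K4me3 peak with a score of 1783, just upstream of H19, has no Spin1 peak above it.

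Directly upstream of H19, where the imprinting control region of the locus is known to lie, 2 H3K4me3 peaks had no Spin1 peak. The larger (chr7:142579740-142581124, 1385 bp, score 1783) was centered 2.3 kb and the smaller (chr7:142581569-142582238, 670 bp, score 86.2) 3.8 kb upstream of the start site. The nearest Spin1 peak to the larger ended 1349 bp away. Among all 16158 H3K4me3 peaks outside promoters in the genome, 82.4% likewise had no Spin1 peak. The control region is known for sites of the insulator protein CTCF. The letters GGNGGCAG, the core of the CTCF motif, were therefore searched on both strands in the 5 kb upstream of H19 and matched 6 times, whereas the median over 26182 genes was 2 and 3.85% of genes had at least 6 matches. The matches are shown with 11 bases on each side and the core in capitals, 5′ to 3′ on the strand of the match, because they mark this stretch in the sequence.
Match 1295 bp upstream (chr7:142579430-142579459, plus strand): ttcactggtgtGGTGGCAGttggtctctgt
Match 2163 bp upstream (chr7:142580298-142580327, minus strand): cgatgccgcgtGGTGGCAGtacaatactac
Match 2618 bp upstream (chr7:142580753-142580782, minus strand): tgctaccgcgcGGTGGCAGcatactcctat
Match 3644 bp upstream (chr7:142581779-142581808, minus strand): ggttgccgcacGGCGGCAGtgaagtctcgt
Match 3763 bp upstream (chr7:142581898-142581927, minus strand): aatgccactagGGGGGCAGgacacatgcat
Match 3888 bp upstream (chr7:142582023-142582052, minus strand): agttgccgcgtGGTGGCAGcaaaatcgatt
Of the 6 matches, 5 lay inside the 2 H3K4me3 peaks and none inside a Spin1 peak. In 4 of the 5 the letters CCGC precede the core within 6 bases. A match describes the letters, and CTCF was not measured in these samples.

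Of the receptor genes, Igf1r had the wider peaks and the higher Spin1 score. Its Spin1 peak of 5080 bp and a score of 3100 (chr7:67950338-67955417) reached from 1919 bp upstream to 3160 bp downstream of the start site at 67952257 and was wider than that of 97% of genes with both peaks. The H3K4me3 peak measured 6641 bp (chr7:67949768-67956408). Igf1r is a gene of 281412 bp, and its introns held 4 further Spin1 peaks and 11 of the 13 H3K4me3 peaks outside promoters of this region. The strongest Spin1 peak outside promoters in all regions lay here, with 1284 bp and a score of 433 (chr7:68128898-68130181), centered 177.3 kb downstream of the start site. A second Spin1 peak of 658 bp and a score of 127 (chr7:68128026-68128683) adjoined it, and both lay inside an intronic H3K4me3 peak of 2959 bp with a score of 3100 (chr7:68127832-68130790), the highest of the 34 H3K4me3 peaks outside promoters. The curated start site nearest to the center of the stronger Spin1 peak, that of Pgpep1l, was 134694 bp away. The other intronic Spin1 peaks scored 102 (chr7:68021701-68022389, inside H3K4me3) and 126 (chr7:68146743-68147455, 1007 bp from the nearest H3K4me3 peak).

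**Figure D3:**
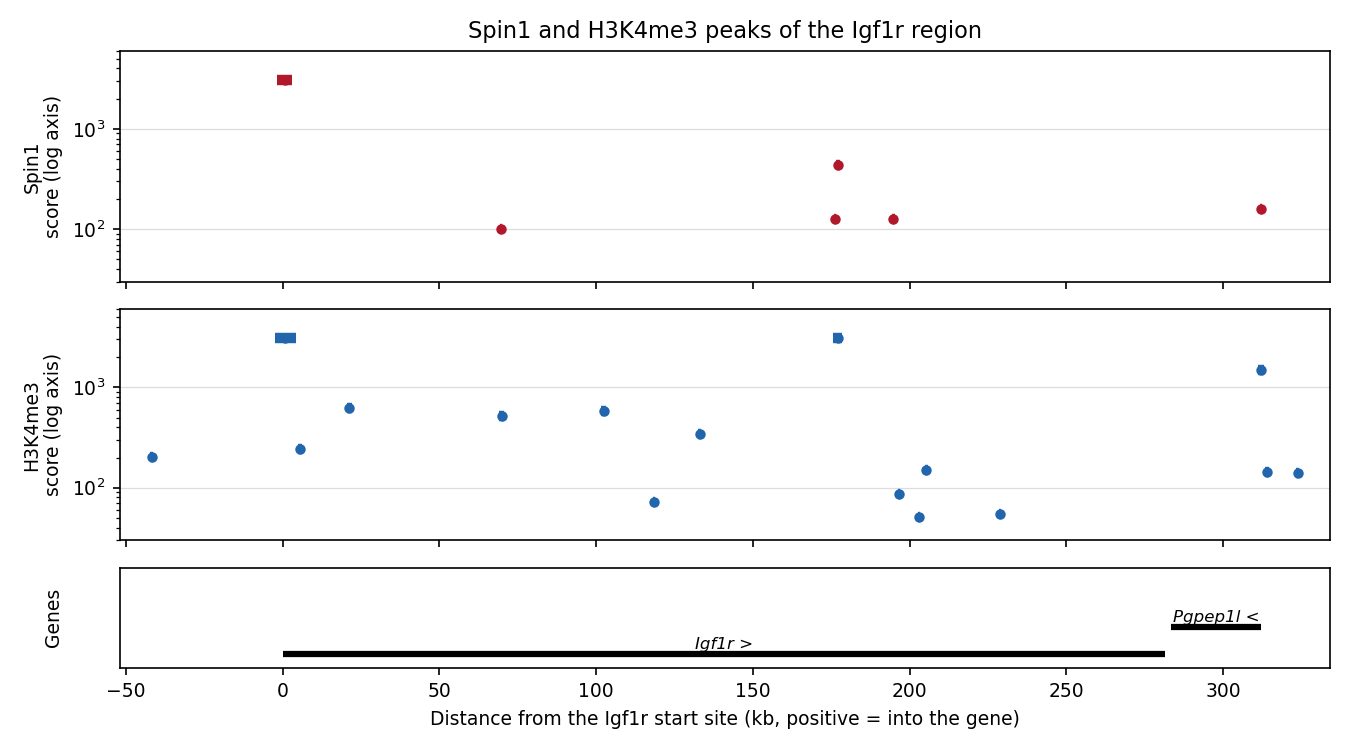
Spin1 peaks (upper panel) and H3K4me3 peaks (middle panel) of the Igf1r region by distance in kb from the Igf1r start site and score on a log axis, where a bar gives the width of a peak and a dot its center. Apart from the promoter, the intronic place at 177.3 kb has the highest Spin1 score, 433, and an H3K4me3 score of 3100.

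Igf2r had a Spin1 peak of 2418 bp and a score of 2729 at chr17:12767727-12770144, in an H3K4me3 peak of 4628 bp (chr17:12765763-12770390). A second Spin1 peak of similar width, 2982 bp with a score of 1669 (chr17:12740933-12743914), lay in an Igf2r intron, centered 27.3 kb downstream of the start site. This is the promoter of Airn, the antisense non-coding RNA that is known to silence the paternal copy of Igf2r, and H3K4me3 there measured 3377 bp with a score of 3100 (chr17:12740712-12744088). Both promoters of this imprinted pair thus carried both peaks. The other 7 H3K4me3 peaks of the region, with scores from 64.4 to 1251, had no Spin1 peak.

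The binding protein genes differed in the share of the H3K4me3 peak that Spin1 covered. At Igfbp3, which encodes the main carrier of IGFs in serum, the Spin1 peak measured 2758 bp with a score of 1067 (chr11:7211464-7214221) and covered 60.4% of the H3K4me3 peak of 4570 bp. At Igfbp4 it measured 1271 bp with a score of 439 (chr11:99040697-99041967) and covered 33.6% of 3784 bp. At Igfbp2 it measured 855 bp with a score of 119 (chr1:72824399-72825253) and covered 30.7% of 2788 bp. Igfbp2 therefore had the lowest Spin1 score of the 10 genes, above that of 2.06% of genes with both peaks.

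Igfbp5, whose product is abundant in differentiating muscle cells, had the narrowest single Spin1 promoter peak relative to its H3K4me3 peak among the 10 genes. Its H3K4me3 peak of 6413 bp (chr1:72869679-72876091) was wider than that of 91.3% of genes with both peaks, whereas its Spin1 peak of 1179 bp and a score of 394 (chr1:72873386-72874564) was wider than that of 9.84%. Of the 1147 genes with an H3K4me3 peak at least as wide, 9 (0.785%) had a Spin1 peak no wider than that of Igfbp5. Both counts include Igfbp5 itself. The median Spin1 width of the 1147 genes was 4329 bp. These widths were compared after the values of Igfbp5 had been seen. Only the widest single Spin1 promoter peak of each gene was used, so Spin1 split into several peaks was not added up. The Spin1 peak lay wholly downstream of the start site, from 301 to 1479 bp, a position found at Igf1 and Igfbp5 among the 10 genes and at 4.1% of genes with both peaks. Within the same H3K4me3 peak, 2 further Spin1 peaks lay in an Igfbp5 intron, with 745 bp and a score of 153 (chr1:72871761-72872505) and with 666 bp and a score of 108 (chr1:72870231-72870896). Together the 3 Spin1 peaks covered 40.4% of the H3K4me3 peak. By this share Igfbp5 was above Igfbp4 (33.6%), Igfbp2 (30.7%) and Igf1 (29.8%) and below the remaining IGF genes. Igfbp2 and Igfbp5 are neighbors on chromosome 1, and a Spin1 peak without H3K4me3 lay 30.3 kb upstream of Igfbp2 (chr1:72793807-72794495, 689 bp, score 102).

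**Figure D4:**
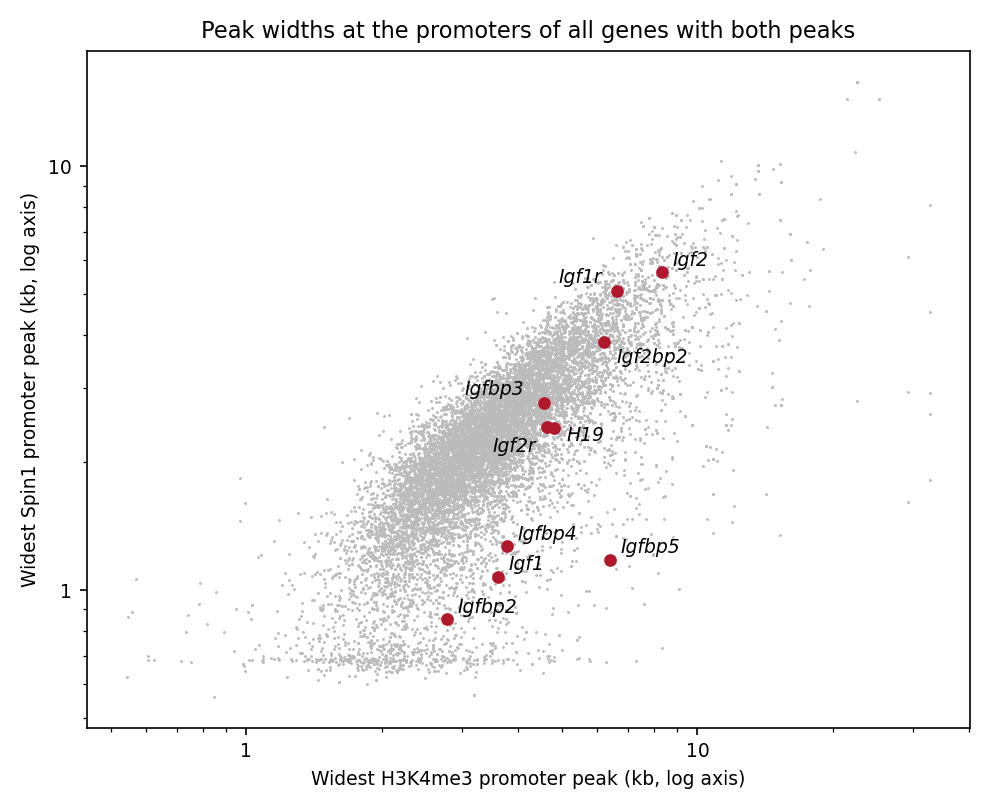
Width in kb of the widest Spin1 promoter peak against that of the widest H3K4me3 promoter peak, both on log axes, for the 13246 genes with both peaks (grey) and the 10 IGF axis genes (red). Igf2, Igf1r and Igf2bp2 lie at the wide end of the cloud, and Igfbp5 lies toward its lower right edge with 1179 bp of Spin1 at 6413 bp of H3K4me3.

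Igf2bp2 encodes an RNA-binding protein that binds transcripts including Igf2 mRNA. Its Spin1 peak measured 3847 bp with a score of 3100 (chr16:22160341-22164187), wider than that of 89.3% of genes with both peaks, in an H3K4me3 peak of 6218 bp (chr16:22158891-22165108). Spin1 covered 94.4% of the 1 kb on each side of its start site. Over the gene body and its flanks there were 5 further H3K4me3 peaks outside promoters, with scores from 79.0 to 469, and no further Spin1 peak outside promoters.

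Across all 8 regions, which cover 1515.5 kb, there were 27 Spin1 and 50 H3K4me3 peaks. Of the Spin1 peaks, 10 lay at the promoters of the IGF genes, 6 at promoters of other genes and 11 outside every promoter. The 11 had scores from 102 to 433 with a median of 127, and 10 scored under 200, whereas the median over all 5309 Spin1 peaks outside promoters was 145. Of the 11, 7 overlapped H3K4me3, against 72.6% of the 5309. Among these 7, the peaks at the 3′ end of H19 and in the Igfbp5 intron overlapped the H3K4me3 peak of that gene's own promoter. Of the 34 H3K4me3 peaks outside promoters, 31 had no Spin1 peak, against 82.4% of 16158 in the genome. A Spin1 peak outside promoters lay in the gene or within 50 kb of it for 5 of the 10 genes, Igf1, H19, Igf1r, Igfbp2 and Igfbp5, against 30.4% of all genes. Igfbp5 was counted only for the peaks in its own intron, which lay inside the H3K4me3 peak of its promoter. The same peaks also lie within 50 kb of Igfbp2. Large genes such as Igf1r have longer regions, and gene length was not taken into account here. The peak of this kind at Igf1 lay in an intron (chr10:87928160-87928766, 607 bp, score 127), without H3K4me3.

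The E-box letters CAGCTG and CACCTG, which myogenic factors of the MyoD family are known to bind, were searched on both strands in the 11 Spin1 peaks outside promoters. At least 1 was found in 10 of the 11, the exception being the intronic peak of Igf1, and in 69.7% of all 5309 such peaks. Those of the Nctc1 intron and of the strongest Igf1r intron peak are shown, with 15 bases on each side and the E-box in capitals, 5′ to 3′ on the plus strand.
Nctc1 intron, left E-box (chr7:142550426-142550461, plus strand): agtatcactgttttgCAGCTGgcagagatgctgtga
Nctc1 intron, middle E-box (chr7:142550604-142550639, plus strand): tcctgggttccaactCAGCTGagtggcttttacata
Nctc1 intron, right E-box (chr7:142550973-142551008, plus strand): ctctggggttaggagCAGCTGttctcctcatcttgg
Igf1r intron, CACCTG box read on the other strand (chr7:68128940-68128975, plus strand): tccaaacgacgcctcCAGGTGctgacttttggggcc
Igf1r intron, CAGCTG box (chr7:68129241-68129276, plus strand): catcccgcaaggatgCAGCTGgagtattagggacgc
The Nctc1 peak holds 3 CAGCTG boxes, as do the intergenic peak upstream of H19 and the Igf1r intron peak with a score of 126. At the start sites themselves, 14 of 16 windows of 1 kb on each side held 1 of these E-boxes, against 91.1% of all start sites. The letters TATAAA, read on the strand of the gene 40 to 15 bp upstream, were found at 1 of 16 start sites, that of Igfbp4, and at 2.31% of all start sites. A match says nothing of which protein was bound.

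The CpG ratio, that is, the number of CpG over that expected from the C and G content, was taken over 0.5 kb on each side of each start site. It was at least 0.6 at 9 of the 16 start sites, against 43.2% of all start sites and 76.9% of those with Spin1. The highest ratios were 1.08 at Igf1r, 0.98 at Igfbp3 and 0.92 at Igf2bp2, and the lowest were 0.06 at the most upstream start site of Igf2 and 0.19 at the first of Igf1, the pair without Spin1. Spearman's rho between the ratio and the bases under Spin1 was 0.65 over the 16 start sites, several of which share a gene and a peak, 0.76 over all 31647 and 0.43 over the 15950 with a Spin1 peak. These are descriptions of sequence and peaks, and base composition can itself affect the recovery of fragments, which was not tested. The main start site of Igf2 stood apart, with a ratio of 0.21 and all of its 2001 bp window under Spin1, while 11.1% of the 4079 start sites with a ratio from 0.2 to 0.3 had any Spin1 peak. The same peak also spans the next start site of Igf2, with a ratio of 0.76. Conversely, Igfbp3 had 1299 bp under Spin1 at a ratio of 0.98, below the lower quartile of 1592 bp for start sites of like ratio, and Igfbp2 had 855 bp at 0.77, below 1367 bp. H19, with a ratio of 0.48, had 1246 bp, above the upper quartile of 1153 bp. In all, 4 of the 16 start sites lay above the upper quartile of start sites of like ratio (H19, 1 of Igf2 and 2 of Igf1), 4 lay below the lower quartile (Igf2r, Igfbp3 and both of Igfbp2) and 8 lay between. For those of Igf2 and Igf1 the upper quartile was 0 bp, so any Spin1 peak in the window places them above it.

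**Figure D5:**
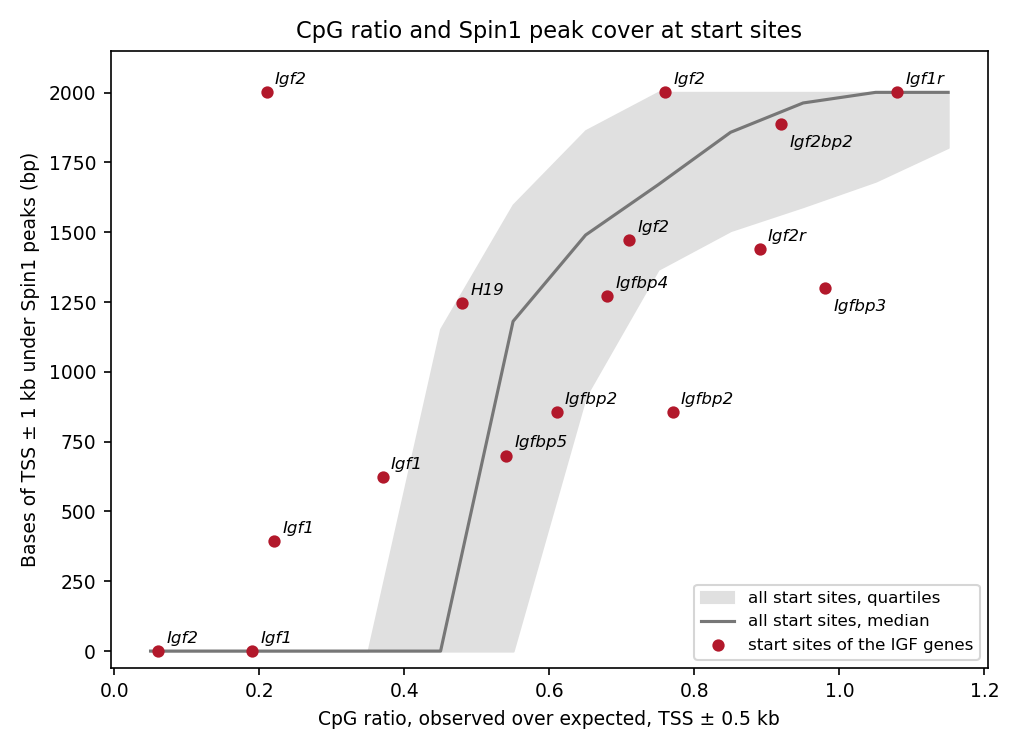
Bases under Spin1 peaks in the 1 kb on each side of a start site against its CpG ratio, for the 16 start sites of the IGF genes (red) and, as median line and band between quartiles in steps of 0.1, all 31647 start sites. Against the quartiles of its own step, 8 of the start sites lie between, 4 above and 4 below. The drawn band joins the midpoints of the steps, so points near its edge can fall on the other side of it. An Igf2 start site lies at 2001 bp with a ratio of 0.21.

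Of 40 other genes of the pathway, 32 carried Spin1 and H3K4me3 at the promoter, whereas 5 carried neither. Over all genes the share with both was 50.6%, and over protein-coding genes 56.7%. Among the 26 signalling genes 24 had both, including the insulin receptor substrates Irs1 and Irs2, whose Spin1 peaks of 9487 and 7948 bp were wider than that of any of the 10 genes above. Irs4, another insulin receptor substrate gene, had H3K4me3 alone. Both paralogs of Igf2bp2, Igf2bp1 and Igf2bp3, had both peaks with a Spin1 score of 3100. Of the insulin ligands and receptors, Insr had both, Insrr had H3K4me3 alone, and the insulin genes Ins1 and Ins2 had neither. Of 8 other binding proteins and proteases, 5 (62.5%) had both, close to the share over protein-coding genes. Among the 5 were Igfbp7 with a Spin1 score of 3081 and Stc1, an inhibitor of the protease PAPP-A, with 110. Igfbp1 and Igfals, which are known as liver genes, and Pappa2 had neither.

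The label of the cells was checked on markers. All 6 myoblast markers (Myod1, Myf5, Pax7, Des, Cdh15 and Itga7) had both peaks, against 50.6% of all genes. H3K4me3, with or without Spin1, lay at 61.9% of all genes. Both peaks were also found at 2 of 4 fibroblast markers (Pdgfra and Col1a1), and the other 2 (Thy1 and Tcf21) had H3K4me3 alone. The fibroblast count with both peaks is close to the share over all genes and does not set these markers apart. By H3K4me3 alone or with Spin1, however, all 4 fibroblast markers were marked, as were all 6 myoblast markers. None of 4 endothelial, 4 immune and 3 hepatocyte markers had both, but H3K4me3 alone was found at 3 endothelial markers (Cdh5, Kdr and Tek) and 1 immune marker (Cd68). The hepatocyte markers had neither. Glial markers are not reported here. A part of other cell types in the peaks of the IGF genes was not tested.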

How the data were processed

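ChIP-seq peaks of Spin1 and H3K4me3 in primary myoblasts were used, 1 library each. Per the study's methods, H3K4me3 was precipitated from a small part of the chromatin and Spin1 from the rest, reads were aligned with Bowtie 2 to mm10, and peaks were called with MACS 1.4.2 against the input, with peaks above a false discovery rate of 1% removed. The deposited files give position and a score per peak (10 times -log10 of the p-value). Since read counts were not used, depth and counting error are unknown, and the unequal chromatin and antibody amounts mean that levels were not compared between the lists.

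Starts were converted to 1-based positions. All peaks lay on the 21 chromosomes of RefSeq GRCm38 and within their lengths. The annotation was RefSeq release 108.20200622, with 45756 curated transcripts. A peak counted at a promoter with an overlap of at least 1 bp with 1 kb on each side of a curated TSS, and a region was the gene with 50 kb on each side. CpG and motifs were read from the RefSeq genome with pysam 0.24.0, and tables were made with pandas 2.3.3 and scipy 1.17.1 in Python 3.11.15. Overlap and motif functions were tested on simulated data. All 10 genes, every peak at their promoters, and all Spin1 peaks outside promoters were named, with other genes whose promoter holds a peak in a region. The genes and lists were chosen with earlier results of these data known, and some genes of the lists are not reported here. No test was made, as there were no replicates. Other windows, flanks, overlap rules and score minimums were tried as alternatives.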

Additional observations from a re-analysis of the deposited data

How the results depend on the processing

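No paired analysis was possible because Spin1 and H3K4me3 have 1 library each and no result comes from a test. Of the counts, 44 alternatives stayed within 1.5 times the reported value and 16 did not. When the center of the peak had to lie within 1 kb of the start site, 5 genes kept H3K4me3, 5 both peaks, 9 start sites Spin1 and 21 other pathway genes both peaks. With the 50% of each list with the highest score, 5 genes kept Spin1 and 5 both peaks (Igf1, Igfbp2, Igfbp3, Igfbp4 and Igfbp5 lost Spin1), 7 start sites kept Spin1, the regions held 9 Spin1 and 16 H3K4me3 peaks, and the counts of Spin1 peaks outside promoters, of genes with one and of those overlapping H3K4me3 were 0, 0 and 0. With predicted transcripts, 34 start sites had Spin1, as more start sites were counted. With 100 kb on each side, 18 Spin1 peaks lay outside promoters, 12 of them overlapped H3K4me3 and 8 genes had one. With 1 kb upstream and 0.1 kb downstream, Igfbp5 lost its Spin1 call. The number of CpG-rich start sites was 8 over 1 kb on each side. With a minimum score of 100, 10 genes and 14 start sites kept Spin1 and 11 Spin1 peaks lay outside promoters, all as reported. Of these 11, 6 overlapped H3K4me3. The lowest Spin1 score in the regions was 101.67, so this minimum could remove no Spin1 peak there. The median score of the Spin1 list is 1239, and the strongest Spin1 peak outside promoters scored 433. The counts of 0 were thus fixed by the 50% cut. Spin1 at the low-scoring promoters and outside promoters thus scored between the minimum of 100 and the 50% cut, and neither outcome is a check of these peaks. Without a second library the weak peaks have no check.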

Other observations

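The regions of the IGF genes held 6 Spin1 peaks at promoters of other genes. Top2a, which encodes a DNA topoisomerase of dividing cells, lies next to Igfbp4 and had a Spin1 peak of 2828 bp with a score of 3100 in an H3K4me3 peak of 4400 bp, against 1271 bp and 439 at Igfbp4, 17.5 kb away. Mrpl23, a mitochondrial ribosomal protein gene beside H19, had 1954 bp and 2490.5, and 90.7% of this peak was covered by H3K4me3. Senp2, a SUMO protease gene beside Igf2bp2, had 2158 bp and 3145. Pgpep1l, beside Igf1r, had 674 bp and 160, and the H3K4me3 peak of 804 bp with a score of 142 at the promoters of Fam169b and Gm16157 had no Spin1 peak. The remaining pair, at Airn and Mir483, lies within the IGF genes and is described with them.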
